A study of Mus musculus with 44 samples.

Results

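Oxidative phosphorylation is carried out by 5 multi-subunit complexes of the inner mitochondrial membrane. Complex I (NADH dehydrogenase) and complex II (succinate dehydrogenase) pass electrons to ubiquinone, complex III (the cytochrome bc1 complex) passes them to cytochrome c, complex IV (cytochrome c oxidase) passes them to oxygen, and complex V (ATP synthase) makes ATP from the proton gradient that complexes I, III and IV build. Most subunits are encoded in the nucleus and imported, a few core subunits of complexes I, III, IV and V are encoded by mitochondrial DNA, and hepatocytes rely on the system to oxidise fatty acids. The genes described here are the nuclear-encoded subunits, taken by name: every row of the count table whose symbol is Ndufa, Ndufb, Ndufs, Ndufv or Ndufc with a number, is Sdha, Sdhb, Sdhc or Sdhd, or begins with Uqcr, Cox4 to Cox8, or Atp5. This gave 84 of 20105 rows, of which 35 belong to complex I, 4 to complex II, 8 to complex III, 20 to complex IV and 15 to complex V. The remaining pair, Atp5s (coupling factor B) and Atp5sl (an assembly factor of the complex I membrane arm), carry the name but are not subunits, which leaves 82 subunits. Cyc1, which encodes cytochrome c1 of complex III, and Ndufab1, the acyl carrier protein of complex I, are not covered by the name rule. No measured value decided whether a gene was a member, but the group was taken up with its changes in these libraries already known, so its counts and medians are descriptions of these libraries.

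The libraries come from male HEP-INTACT mice, whose hepatocyte nuclei are tagged so that they can be pulled out of a liver homogenate. The labels used here do not name the promoter that drives the tag. Advanced and mild FPC mice (3 and 4 animals) had eaten the FPC diet for 20 weeks, and 4 control mice had eaten a low-fat diet for the same time. Advanced and mild CDAHFD mice (3 and 4 animals) had eaten CDAHFD, which is high in fat, lacks choline and supplies defined amino acids, for 7 weeks, and 4 further control mice a low-fat diet for that period. Both diets produce non-alcoholic steatohepatitis, and the diseased mice were divided into mild and advanced by liver histology, so these stages were not randomised. Both fractions, tagged hepatocyte nuclei and whole liver nuclei, were sequenced from each of the 22 mice, which makes 44 libraries. Mice are numbered below within each diet and stage, in the order of the animal numbers in the labels.

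Nuclear RNA is rich in transcripts that are still being made or spliced. The deposited counts covered introns together with exons, since the counted length equalled the full gene length for 94.668% of the genes in the authors' deposited table, so a value here covers unspliced as well as spliced transcripts. Library totals ran from 12135408 to 33063251 counts, with a median of 22798944. Levels are given as normalised CPM, which are a library's counts scaled to its total after weighting by the trimmed mean of M-values (TMM), a method that sets the typical gene to no change. Differences between groups are log2 fold changes from edgeR's quasi-likelihood F-test, adjusted by Benjamini and Hochberg's method across every gene tested, and a gene is said to pass below 0.05. Mice are the replicates. In 20 of 22 mice the hepatocyte and whole liver libraries deviated from their group means together, and in the CDAHFD control mice 1 and 2 they deviated crosswise, so counts against those controls are also given without both.

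Levels of cell type markers in the tagged nuclei differed between the stages. The summed level of 9 hepatocyte markers (albumin and apolipoprotein B among them) lay between 5731 and 9424 normalised CPM in advanced FPC hepatocyte libraries, against 13504 to 24427 in their controls, and all 9 passed the test as lower. In advanced CDAHFD hepatocyte libraries the sum lay between 6502 and 8719, against 12801 to 25541 in controls, and 6 of 9 passed as lower. Of 7 cholangiocyte markers, 7 passed as higher under FPC and 6 under CDAHFD, with sums of 919 to 1393 in advanced FPC hepatocyte libraries against 134 to 164 in controls, and 299 to 463 in advanced CDAHFD hepatocyte libraries against 111 to 173 in controls. All 7 recruited-macrophage markers passed as higher under both diets, with sums of 13.9 to 19.3 in advanced FPC hepatocyte libraries against 1.84 to 3.59 in controls, where Trem2 was at 0, and of 48.3 to 62.5 in advanced CDAHFD hepatocyte libraries against 3.01 to 4.98 in controls. In these advanced libraries 26.5% of all genes were higher under FPC and 30.3% under CDAHFD. Stellate cell markers passed as higher for 6 of 8 genes under FPC and 4 of 8 under CDAHFD, where Lrat was lower, and lymphocyte markers for 3 of 5 and 3 of 4 genes tested. Of 7 Kupffer cell markers 2 were higher under FPC (median -0.11) and 5 under CDAHFD (median 2.11), and Timd4 was lower under both. Of 8 endothelial markers none was higher, while Clec4g was lower under FPC and Ptprb under CDAHFD. Mild FPC hepatocyte libraries differed from advanced ones in some of these markers. Against controls, where 21.8% of all genes were higher, they had 7 of 8 endothelial markers higher (median 0.98), 5 of 7 Kupffer cell markers (median 2.01), 7 of 8 stellate cell markers (median 1.53) and 5 of 7 cholangiocyte markers (median 2.76), and 6 of 9 hepatocyte markers lower. Recruited-macrophage markers were higher there for 6 of 7 genes (median 4.29), and lymphocyte markers for 4 of 5 tested (median 2.14). Advanced against mild FPC hepatocyte libraries had 6 of 8 endothelial and 4 of 7 Kupffer cell markers lower (medians -1.29 and -2.02) and 6 of 7 cholangiocyte markers higher (median 2.19). Between these stages 2 of 8 stellate cell markers were higher (median 0.24), and no recruited-macrophage or lymphocyte marker passed. In mild CDAHFD hepatocyte libraries all 7 recruited-macrophage, all 4 tested lymphocyte, 6 of 7 cholangiocyte, 5 of 7 Kupffer cell, 4 of 8 stellate cell and 1 of 8 endothelial markers were higher than in controls, and 7 of 9 hepatocyte markers were lower. Their part in the changes of the subunit genes was not tested. In whole liver, fewer cells of a type and less RNA in each cell cannot be told apart.

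The promoters of 5 subunit genes are printed here. In each complex, the gene shown passed as lower in advanced hepatocyte nuclei under both diets and, of the genes that did so and have an entry in the RefSeq promoter table, had the largest change in whichever diet moved it less. They are Ndufa5 (complex I, chr6:24527691-24527940, minus strand), Sdhb (complex II, chr4:140961021-140961270, plus strand), Uqcrfs1 (complex III, chr13:30545317-30545566, minus strand), Cox7b (complex IV, chrX:106015450-106015699, plus strand) and Atp5c1 (complex V, chr2:10080511-10080760, minus strand). Each run is the 250 bases before the transcription start in RefSeq on GRCm38.p6, read 5′ to 3′ along the gene's own strand, with matches to the searched motifs in capitals.
Ndufa5: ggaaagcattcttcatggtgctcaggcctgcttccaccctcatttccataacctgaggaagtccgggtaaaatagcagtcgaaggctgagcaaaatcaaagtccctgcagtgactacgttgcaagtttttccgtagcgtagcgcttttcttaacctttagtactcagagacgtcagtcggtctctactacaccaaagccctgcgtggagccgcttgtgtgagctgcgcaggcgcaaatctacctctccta
Sdhb: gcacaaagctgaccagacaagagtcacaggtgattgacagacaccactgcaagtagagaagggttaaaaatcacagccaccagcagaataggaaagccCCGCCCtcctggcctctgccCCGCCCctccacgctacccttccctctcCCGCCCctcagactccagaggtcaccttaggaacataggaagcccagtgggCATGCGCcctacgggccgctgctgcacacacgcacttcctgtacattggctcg
Uqcrfs1: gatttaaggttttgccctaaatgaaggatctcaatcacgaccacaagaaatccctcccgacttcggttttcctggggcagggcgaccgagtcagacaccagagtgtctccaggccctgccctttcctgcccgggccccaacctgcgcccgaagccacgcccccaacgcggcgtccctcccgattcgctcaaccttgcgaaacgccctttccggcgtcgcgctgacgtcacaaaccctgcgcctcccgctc
Cox7b: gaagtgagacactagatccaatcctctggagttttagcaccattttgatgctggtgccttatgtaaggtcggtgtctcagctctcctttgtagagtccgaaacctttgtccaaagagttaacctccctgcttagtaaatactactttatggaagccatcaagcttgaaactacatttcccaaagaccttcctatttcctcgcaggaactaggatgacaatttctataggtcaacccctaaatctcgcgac
Atp5c1: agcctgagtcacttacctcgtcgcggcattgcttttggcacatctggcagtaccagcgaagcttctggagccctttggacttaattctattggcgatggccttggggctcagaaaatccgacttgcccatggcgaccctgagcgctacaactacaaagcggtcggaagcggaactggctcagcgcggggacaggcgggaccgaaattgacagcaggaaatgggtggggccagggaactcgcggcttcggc
The Sdhb promoter holds CCGCCC, the box bound by SP1, at bases -152, -132 and -104 from the start, and CATGCGC, the core of the site of nuclear respiratory factor 1 (NRF1), at base -53. The other 4 promoters hold none of the 5 motifs searched, which are described with their frequencies further on.

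Nuclear-encoded respiratory subunits were lower in advanced disease under both diets, relative to the typical gene of the same libraries. In advanced FPC hepatocyte nuclei 46 of the 76 members tested fell and none rose, where 20.4% of all 13498 genes tested were lower. At an unadjusted p under 0.05 the counts were 57 lower and 0 higher, and DESeq2 called 51 lower and 1 higher. Shares of all genes that passed are given here and below only for the main edgeR fit and for total-count scaling. Counts of members under an unadjusted p, DESeq2, the authors' table or left-out mice have no such share beside them. In advanced CDAHFD hepatocyte nuclei 53 of 77 fell and 1 rose, where 29.2% of all 13277 genes were lower and 30.3% higher. The 1 that rose, Cox6b2, entered the fit only through the diseased groups where it is high. The median log2 fold change of the members tested was -0.52 under FPC and -0.75 under CDAHFD, while the median over all genes tested lay within 0.01 of 0 under each. All 74 subunits tested under FPC had a negative log2 fold change, from -1.90 to -0.09. A total of 35 members fell under both diets, which is 35 of the 46 lower under FPC (76.1%) and 35 of the 53 lower under CDAHFD (66.0%). Of all genes tested under both diets, 15.4% fell under both, which is 74.2% of those lower under FPC and 52.1% of those lower under CDAHFD. Without CDAHFD control mice 1 and 2, 48 members fell and none rose in advanced CDAHFD hepatocytes. The authors' deposited table, which covers 79 of the members, gives 55 lower and 1 higher in advanced FPC hepatocytes and 53 lower and 1 higher in advanced CDAHFD hepatocytes at the same threshold.

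How far these genes fell depends on what is held constant. The 20 most abundant genes took 5.98% of all counts in advanced FPC hepatocyte libraries against 10.5% in controls, and 7.70% in advanced CDAHFD hepatocyte libraries against 9.82% in controls. In mild hepatocyte libraries the share was 8.18% under FPC and 10.1% under CDAHFD, and under CDAHFD it was not below that of controls. Scaling by total counts alone moved the median of all genes up by 0.40 under FPC and 0.49 under CDAHFD on the log2 scale, and lowered the share of called genes that were lower to 15.2% under FPC (43.5% with TMM) and 19.9% under CDAHFD (49.0% with TMM). On that scale the median of the members was -0.12 under FPC and -0.25 under CDAHFD, with 54 of 76 and 52 of 77 log2 fold changes below 0. It left 6 members lower and 1 higher under FPC, and 26 lower and 7 higher under CDAHFD (Atp5a1, Atp5h, Cox6b2, Ndufa11, Ndufb10 and Ndufv3 among them). The 6 under FPC were Atp5c1, Atp5j, Atp5sl, Cox7b, Sdhb and Sdhd, and all of them except Atp5sl were also among the 26 under CDAHFD. Over all genes on that scale, 1079 of 13498 were lower and 6035 higher under FPC. Under CDAHFD 1633 of 13277 genes were lower and 6592 higher. Directions below are relative to the typical gene. Of the members given below as lower in advanced FPC hepatocytes, only those 6 also passed as lower under total-count scaling.

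Summed over the 82 subunits, advanced FPC hepatocyte nuclei held 1247 ± 71.2 normalised CPM (SD, n = 3), against 1982 ± 83.1 in controls (n = 4), or 62.9% of the control level. Advanced CDAHFD hepatocyte nuclei held 1265 ± 46.8 (n = 3), against 2079 ± 195 in controls (n = 4), or 60.9%. As plain shares of all counts, with no TMM scaling, the same sums were 1379.8 ± 31.2 CPM in advanced FPC hepatocytes against 1527 ± 77.2 in controls, and 1456 ± 50.4 in advanced CDAHFD hepatocytes against 1678 ± 116 in controls. By complex, advanced FPC hepatocytes kept 66.8% of the control level for complex I, 56.0% for complex II, 63.4% for complex III, 62.9% for complex IV and 59.6% for complex V. Advanced CDAHFD hepatocytes kept 61.6%, 51.8%, 59.9%, 59.8% and 64.6% for the same complexes in that order. Complex II had the lowest share under both diets, and no test was made between complexes.

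**Figure D1:**
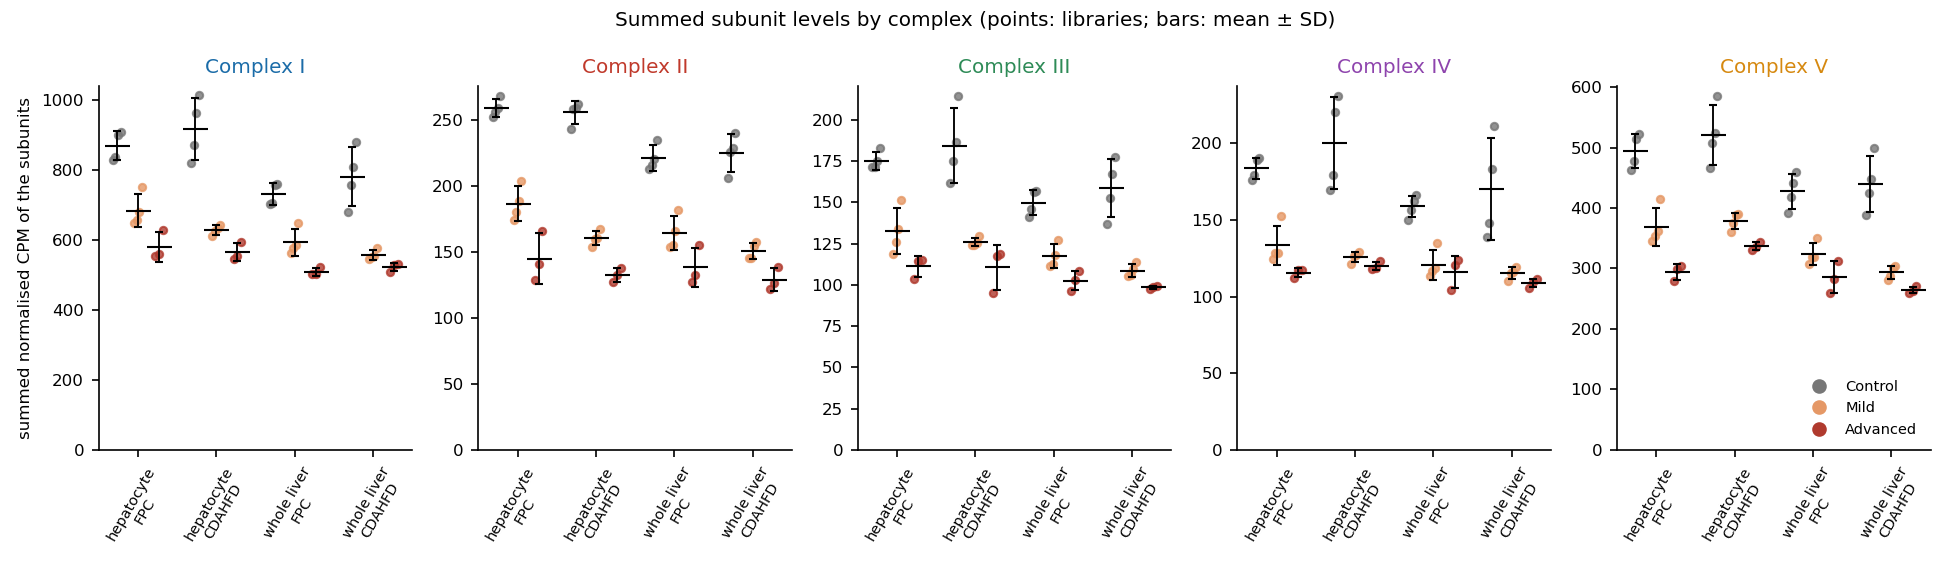
Summed normalised CPM (vertical axis, from 0) of the subunits of each complex in every library, by fraction and diet, with the control, mild and advanced libraries side by side from left to right; bars are the mean ± SD. In hepatocyte nuclei the advanced libraries of complex II sit between 127 and 166 normalised CPM, below all control libraries, which lie at 243 or more.

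The separation of the libraries can also be read gene by gene. In hepatocyte nuclei every advanced FPC library was below every control library for 66 of the 76 members tested, or 86.8%, against 29.5% of all genes. Under CDAHFD this held for 53 of 77, or 68.8%, against 27.8% of all genes.

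In complex I, 17 of 34 members tested fell in advanced FPC hepatocytes (median log2 fold change -0.49) and 23 of 34 in advanced CDAHFD hepatocytes (median -0.70). Complex I is built from an N module that binds NADH, a Q module that reduces ubiquinone and a P module in the membrane. In advanced FPC hepatocytes 5 of 10 N, 5 of 6 Q and 7 of 18 P module members fell, and in advanced CDAHFD hepatocytes 7 of 10, 4 of 6 and 12 of 18. Of the 7 nuclear-encoded core subunits, which are conserved from bacteria and include those that carry the flavin and the iron-sulphur clusters, 5 fell under FPC and 4 under CDAHFD, and of the 27 accessory subunits tested 12 fell under FPC and 19 under CDAHFD.

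Ndufa5, an accessory subunit of the matrix arm (chr6:24518666-24527687, mm10), measured 5.25, 4.42 and 3.97 normalised CPM in advanced FPC hepatocyte libraries, against 9.45, 8.92, 8.96 and 7.91 in controls. In advanced CDAHFD hepatocyte libraries it measured 2.54, 3.14 and 2.92, against 10.2, 7.99, 7.57 and 8.74 in controls. The groups did not overlap under either diet, and the log2 fold change was -0.83 (SE 0.23, edgeR adjusted p = 0.01) under FPC and -1.57 (SE 0.19, adjusted p = 2.4e-05) under CDAHFD. Ndufb3, an accessory subunit of the membrane arm, had the lowest log2 fold change of complex I under CDAHFD, -1.77 (SE 0.29, edgeR adjusted p = 0.00024). It measured 2.4, 3.56 and 5.09 normalised CPM in advanced CDAHFD hepatocytes, against 16.9, 8.80, 11.6 and 14.2 in controls, and 9.26, 5.51 and 8.31 in advanced FPC hepatocytes, against 13.1, 12.3, 14.6 and 12.8 in controls. Each advanced library was again below each control library of its diet. Ndufa6, a LYR-motif protein that anchors the acyl carrier protein, fell by 0.71 under FPC and by 1.09 under CDAHFD on the log2 scale, and Ndufs7, the core subunit with the terminal iron-sulphur cluster, by 0.68 and 0.75.

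Ndufs4, an accessory N module subunit whose loss in mice gives a model of Leigh syndrome, is one of the longest genes of the group, at 100300 bases. It measured 166, 119 and 119 normalised CPM in advanced FPC hepatocytes, against 190, 189, 209 and 234 in controls (log2 fold change -0.49, SE 0.15, edgeR adjusted p = 0.017). In advanced CDAHFD hepatocytes it measured 99.0, 85.9 and 94.9, against 214, 189, 171 and 196 in controls (-1.03, SE 0.10, adjusted p = 6.7e-06). Neither diet's groups overlapped.

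Not every complex I gene passed the test. Ndufs8, a core subunit that carries iron-sulphur clusters, had the lowest value of complex I under FPC (-0.92, SE 0.30, edgeR adjusted p = 0.024) and -0.02 under CDAHFD (SE 0.23), where it did not pass. Ndufb7 had the highest value under FPC at -0.09 and did not pass.

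All 4 subunits of complex II fell in advanced hepatocytes under both diets, with medians of -0.68 under FPC and -1.09 under CDAHFD. Under total-count scaling all 4 still passed as lower under CDAHFD, and Sdhb and Sdhd did so under FPC. On that scale Sdhc (-0.08) and Sdha (-0.16) did not pass under FPC. Succinate dehydrogenase belongs to both the respiratory chain and the tricarboxylic acid cycle, and all of its subunits are encoded in the nucleus. Sdhb, the iron-sulphur subunit (chr4:140961271-140979192, mm10), measured 25.3, 24.5 and 25.9 normalised CPM in advanced FPC hepatocytes, against 72.7, 61.1, 73.8 and 55.6 in controls, a log2 fold change of -1.26 (SE 0.13, edgeR adjusted p = 6.5e-06). In advanced CDAHFD hepatocytes it measured 28.0, 27.7 and 31.8, against 57, 67.2, 57.9 and 60.8 in controls (-1.04, SE 0.10, adjusted p = 6.9e-06). The highest advanced library was well below the lowest control library under each diet. Sdhc, a membrane anchor that helps to bind ubiquinone and haem, fell by 0.49 under FPC and by 1.21 under CDAHFD on the log2 scale. It measured 22, 21 and 24.9 in advanced FPC hepatocytes, against 32.8, 36.3, 33.8 and 35.6 in controls, and 13.8, 13.2 and 18.1 in advanced CDAHFD hepatocytes, against 38.4, 33.4, 33.6 and 35.5 in controls. The other anchor, Sdhd, fell by 0.80 under FPC and by 1.15 under CDAHFD, and the flavoprotein Sdha by 0.55 under FPC and by 0.79 under CDAHFD.

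In complex III, 6 of 8 members fell in advanced FPC hepatocytes (median -0.53) and 7 of 8 in advanced CDAHFD hepatocytes (median -0.76). Uqcrfs1 (chr13:30540312-30545316, mm10) encodes the Rieske iron-sulphur protein, which takes electrons from ubiquinol. It measured 4.58, 3.64 and 2.87 normalised CPM in advanced FPC hepatocytes, against 5.91, 6.84, 5.41 and 8.50 in controls (log2 fold change -0.72, SE 0.26, edgeR adjusted p = 0.038). In advanced CDAHFD hepatocytes it measured 1.99, 3.14 and 3.84, against 7.94, 6.53, 6.90 and 7.81 in controls (-1.25, SE 0.22, adjusted p = 0.00045). The groups did not overlap under either diet. The small subunits Uqcrb and Uqcrq fell by 0.76 and 0.78 under FPC and by 0.87 and 0.75 under CDAHFD. The core protein Uqcrc1 had the highest value under CDAHFD at -0.49 (SE 0.15, edgeR adjusted p = 0.016). Under total-count scaling its log2 fold change was 0.01 and it did not pass. Uqcr11 had the highest value under FPC at -0.42, where it did not pass.

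In complex IV the nuclear-encoded subunits surround a catalytic core encoded by mitochondrial DNA, and several positions can be filled by tissue isoforms. Of the members tested, 9 of 13 fell in advanced FPC hepatocytes (median -0.54), and 9 of 14 fell and 1 rose in advanced CDAHFD hepatocytes (median -0.75). The 1 that rose, Cox6b2, is described below with its limits. Cox7b, a small membrane subunit (chrX:106015700-106022450, mm10), measured 10.3, 10.9 and 11.2 normalised CPM in advanced FPC hepatocytes, against 23.8, 21.7, 21.3 and 22.5 in controls (log2 fold change -0.92, SE 0.13, edgeR adjusted p = 8.1e-05). In advanced CDAHFD hepatocytes it measured 6.92, 7.90 and 10.9, against 26.3, 22.1, 21.6 and 23.2 in controls (-1.42, SE 0.17, adjusted p = 2.3e-05). Every advanced library was below every control library. Cox6c, another small membrane subunit, fell by 0.81 under FPC and by 1.41 under CDAHFD on the log2 scale.

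The forms of complex IV subunits known from heart, muscle, lung and testis had few counts. Cox7a2, the liver form, fell by 0.83 under FPC and by 0.86 under CDAHFD, while Cox7a1, the heart and muscle form, had 116 counts in all 44 libraries together and was not tested. Cox7a2l, which joins complexes III and IV into supercomplexes, fell by 0.50 under CDAHFD and had -0.26 under FPC, where it did not pass. Cox6a1, the liver form, fell by 0.79 under CDAHFD and had -0.22 under FPC, where it did not pass, and its muscle partner Cox6a2 had 12 counts in all. Cox8a fell by 0.95 under CDAHFD and had -0.66 under FPC, where it did not pass, while Cox8b had 9 counts and Cox8c none. Cox4i1 did not pass under either diet (-0.40 under FPC, -0.31 under CDAHFD), and Cox4i2, the lung and hypoxia form, had 67 counts, 27 of them in the 3 advanced FPC whole liver libraries. Cox7b2 had 43 counts. Ndufs5 of complex I, an accessory subunit of the membrane arm and not a tissue isoform, was listed with 7 counts in all and was not tested. Whether so low a count reflects its level or the way reads were counted was not examined.

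A pair of low-expressed complex IV homologues behaved unlike the rest. Cox6b2, known as the testis form of Cox6b1 (chr7:4751792-4753094, mm10), had 7, 16 and 11 counts in advanced CDAHFD hepatocyte libraries, against 0, 0, 6 and 0 in controls, and 2, 5 and 15 counts in advanced FPC hepatocyte libraries, against 0, 0, 1 and 2 in controls. The advanced and control groups did not overlap under CDAHFD and shared the value of 2 counts under FPC. It passed the expression filter only in fits that hold CDAHFD libraries or both fractions, through the diseased groups where it is high, and its fitted log2 fold change in CDAHFD hepatocytes, 2.96 (SE 0.99, edgeR adjusted p = 0.022), depends on the prior count and did not pass without CDAHFD control mice 1 and 2. The authors' deposited table gives 3.01 for it under CDAHFD and 2.99 under FPC. Over the same libraries Cox6b1, the ubiquitous form, measured 10.6, 11.6 and 11.3 normalised CPM in advanced FPC hepatocytes, against 17.4, 19.7, 16.7 and 16.7 in controls, and 8.64, 10.8 and 14.3 in advanced CDAHFD hepatocytes, against 23.2, 19.5, 14.8 and 24.2 in controls. It fell by 0.54 under FPC and by 0.83 under CDAHFD on the log2 scale.

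Ndufa4, now counted with complex IV although its name places it in complex I, fell by 0.40 under FPC, where total-count scaling left it at 0.00 and not passing, and by 0.98 under CDAHFD. Its homologue Ndufa4l2, known in other cells as a target of the hypoxia-inducible factors, was near the limit of detection and had the lowest log2 fold change of complex IV under FPC, -1.90 (SE 0.71, edgeR adjusted p = 0.042). It measured 0.127, 0.592 and 0.0422 normalised CPM in advanced FPC hepatocytes, against 1.16, 0.489, 1.75 and 0.539 in controls, so the groups overlapped. In CDAHFD hepatocytes it measured 1.05, 1.07, 0.744 and 0.733 in controls, 1.70, 1.88, 2.78 and 1.37 in mild and 0.617, 0.839 and 0.481 in advanced mice. All mild libraries were above all other hepatocyte libraries of that diet, and the log2 fold change was 1.10 for mild against control (SE 0.31, edgeR adjusted p = 0.010) and -1.60 for advanced against mild (SE 0.36, adjusted p = 0.041). In whole liver nuclei of the same mice Ndufa4l2 measured 0.278, 0.866, 0.505 and 0.520 in mild mice. Their controls measured 0.713, 0.716, 0.792 and 0.274, so these groups overlapped. The gene overlaps Shmt2 on the other strand, and the strand setting of the counting is not given in the sources used here. The same limit holds for Atp5f1, Atp5j, Ndufa2, Ndufb11 and Uqcrc2, which overlap Wdr77, Gabpa, Tmco6, Rbm10 and Pdzd9.

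In complex V, 9 of 15 members fell in advanced hepatocytes under each diet, with medians of -0.56 under FPC and -0.88 under CDAHFD. The enzyme has a catalytic F1 head of alpha, beta, gamma, delta and epsilon subunits and a membrane part, Fo, with a stalk that joins them. In advanced FPC hepatocytes 4 of 5 F1 genes and 5 of 10 stalk and Fo genes fell, and in advanced CDAHFD hepatocytes 2 of 5 and 7 of 10. Atp5c1, the gamma subunit of the rotor (chr2:10056031-10080510, mm10), measured 69.9, 69.5 and 65.6 normalised CPM in advanced FPC hepatocytes, against 116, 131, 132 and 139 in controls (log2 fold change -0.80, SE 0.11, edgeR adjusted p = 5.6e-05). In advanced CDAHFD hepatocytes it measured 71.2, 57 and 75.3, against 143, 129, 118 and 121 in controls (-0.90, SE 0.12, adjusted p = 6.7e-05). The groups lay far apart under both diets. Among the stalk and Fo genes, Atp5j (factor F6) fell by 0.75 under FPC and by 1.19 under CDAHFD, Atp5j2 (subunit f) by 0.74 and 1.17, and Atp5l (subunit g) by 0.71 and 1.27. Atp5e, the epsilon subunit, had the lowest value of complex V under CDAHFD, -1.31 (SE 0.28, edgeR adjusted p = 0.0018), and -0.26 under FPC, where it did not pass.

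Atp5a1, which encodes the alpha subunit, measured 49.6, 52.6 and 42.4 normalised CPM in advanced FPC hepatocytes, against 77.4, 85.8, 73.9 and 83.7 in controls (log2 fold change -0.61, SE 0.12, edgeR adjusted p = 0.00079). In advanced CDAHFD hepatocytes it measured 79.7, 80.7 and 74.7, against 103, 83.1, 75.2 and 75.4 in controls, and did not pass (-0.09, SE 0.12, but called higher at 0.41 under total-count scaling). Under FPC the groups were apart, and under CDAHFD they overlapped. The 3 genes for subunit c of the Fo ring, whose mature proteins are identical, differed among themselves. Atp5g2 measured 12.6, 13.3 and 14.9 in advanced FPC hepatocytes, against 17.3, 19.9, 18.7 and 16.6 in controls (-0.29, not passing), and 9.12, 9.43 and 8.69 in advanced CDAHFD hepatocytes, against 19.7, 18.1, 18.6 and 19.4 in controls (-1.05, SE 0.12, edgeR adjusted p = 1.5e-05). Atp5g1 fell by 0.60 under CDAHFD and had -0.27 under FPC, where it did not pass. Atp5g3 fell by 0.60 under FPC and had -0.28 under CDAHFD, where it did not pass. Atp5h (subunit d) and Atp5k (subunit e) had the highest values of complex V, 0.16 under CDAHFD and -0.20 under FPC, and neither passed.

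**Figure D2:**
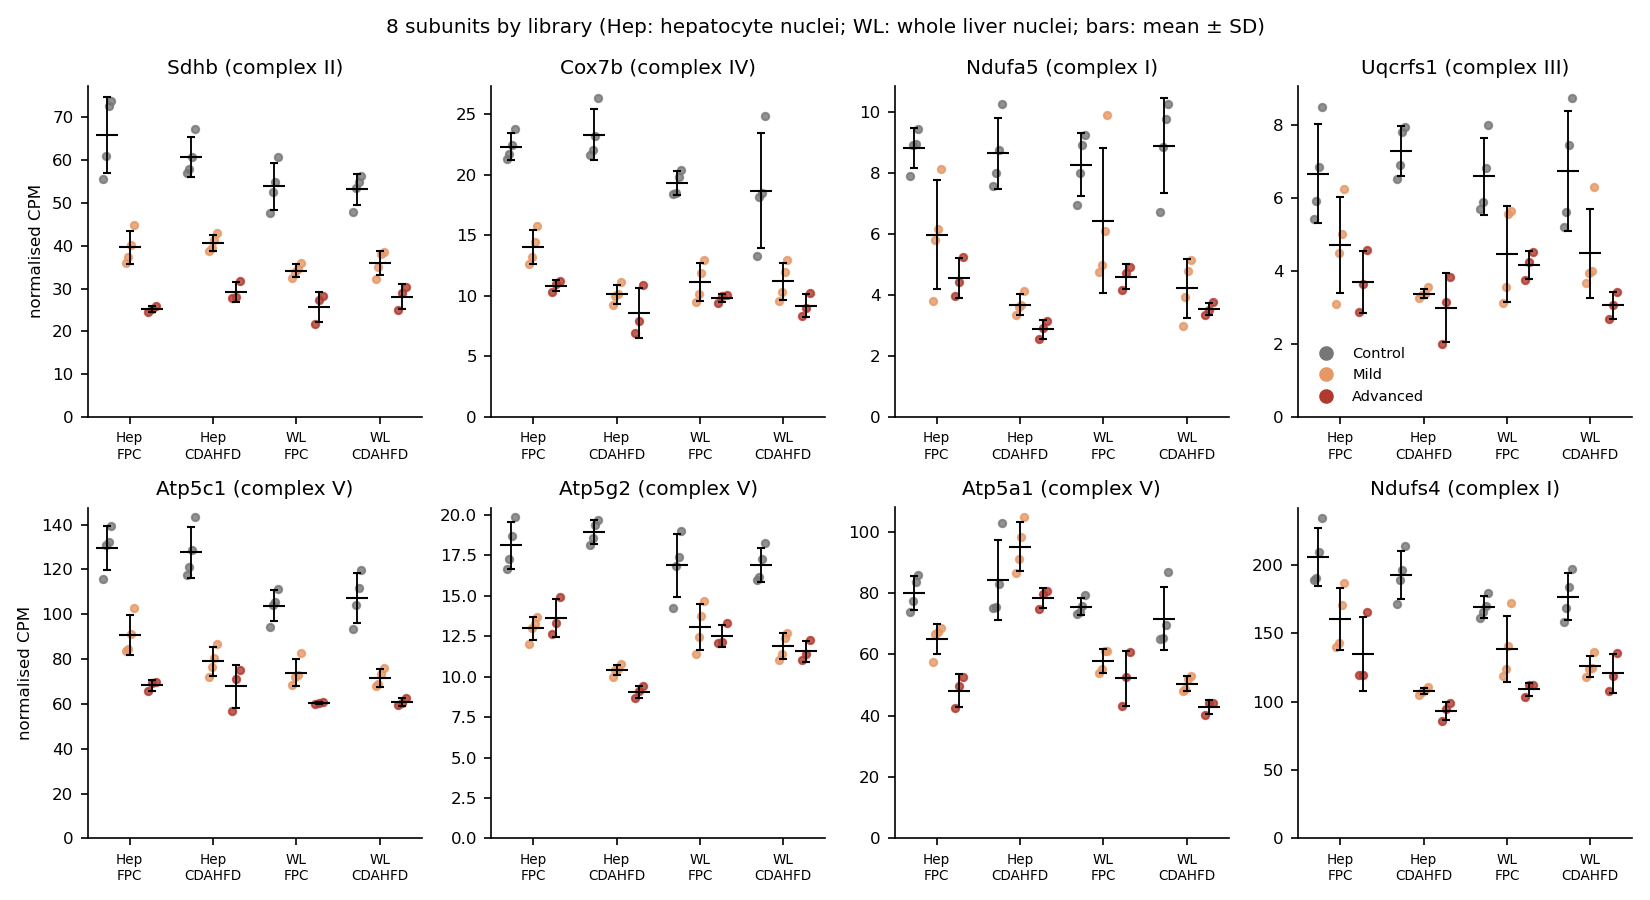
Normalised CPM (vertical axis, from 0) of 8 subunit genes in each of the 44 libraries, by fraction and diet, with control, mild and advanced mice from left to right; bars are the mean ± SD. Sdhb, Cox7b, Ndufa5 and Atp5c1 are lower in every advanced library than in every control library of hepatocyte nuclei, while Atp5a1 overlaps between these groups under CDAHFD.

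The size of the change in advanced hepatocytes was compared between the diets by subtracting the FPC change from the CDAHFD change. It passed for 5 members, 2 with a higher and 3 with a lower value under CDAHFD, where 11.9% of all 13808 genes passed, 4.5% higher and 7.36% lower. For Atp5a1 the difference was 0.59 (edgeR adjusted p = 0.025), for Atp5g2 -0.70 (adjusted p = 0.0077) and for Sdhc -0.66 (adjusted p = 0.021). The other 2 are not subunits. Atp5sl differed by 1.12 (edgeR adjusted p = 0.017) and measured 21.7, 21.5 and 30.1 normalised CPM in advanced CDAHFD hepatocytes, against 38.1, 35.6, 36.4 and 22.9 in controls, and 9.83, 16.3 and 13.8 in advanced FPC hepatocytes, against 43.5, 46.9, 43.6 and 28.7 in controls. It fell under FPC alone (-1.49, SE 0.22, edgeR adjusted p = 0.0001), where the groups were apart. Atp5s differed by -0.82 (edgeR adjusted p = 0.014) and measured 8.91, 7.83 and 9.33 in advanced CDAHFD hepatocytes, against 13.3, 14.6, 14.8 and 12.5 in controls, and 14, 15.2 and 11.6 in advanced FPC hepatocytes, against 11.4, 11.7, 15.4 and 11.9 in controls. It fell under CDAHFD (-0.65, SE 0.14, adjusted p = 0.0021) and its groups overlapped under FPC. The diets differed in content and in weeks of feeding and each had its own controls, so diet and duration cannot be told apart. The count of members that differed was 4 without CDAHFD control mice 1 and 2, and it moved with other libraries and the method, to 9 without advanced FPC mouse 2, 3 without advanced CDAHFD mouse 2, 9 with DESeq2 and 12 (1 higher and 11 lower) with an offset for gene length.

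**Figure D3:**
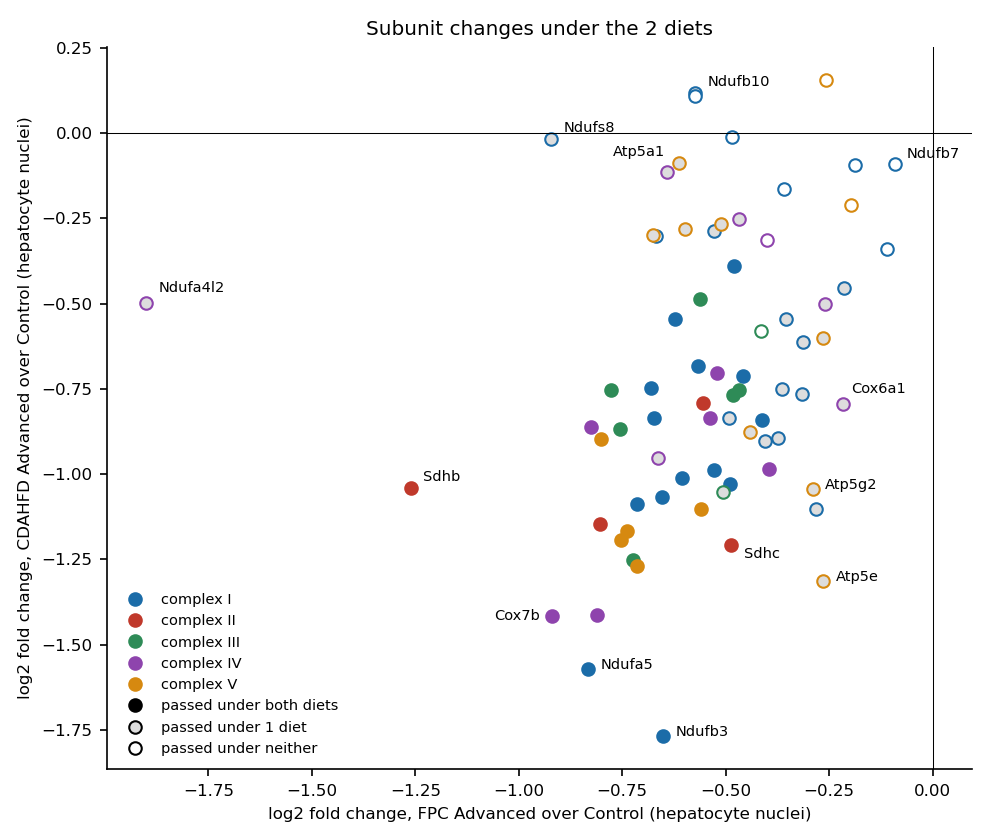
Log2 fold change of subunit genes tested under both diets in advanced over control hepatocyte nuclei under FPC (horizontal axis) and CDAHFD (vertical axis), coloured by complex, with filled points for genes that passed under both diets, grey points for those that passed under 1 and open points for the rest. All points shown lie left of 0 under FPC, while Ndufb10, at -0.57 and 0.12, is among the few above 0 under CDAHFD.

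In mild disease the sums lay between those of advanced and control mice, in libraries whose cell type markers differed from controls as given above (their part was not tested). Hepatocyte nuclei of mild FPC mice held 1506 ± 114 normalised CPM over the 82 subunits (n = 4), or 76.0% of the control level, and those of mild CDAHFD mice 1419.65 ± 34.6 (n = 4), or 68.3%. In mild FPC hepatocytes 20 of 76 members tested fell and none rose, where 11.3% of all genes were lower, and in mild CDAHFD hepatocytes 49 of 77 fell and 4 rose, where 26.7% were lower and 29.6% higher. At an unadjusted p under 0.05 the FPC counts were 34 lower and 1 higher. Without control mouse 2 the FPC count was 13, and under total-count scaling it was 6 lower and 1 higher, with 30 lower and 12 higher under CDAHFD. Over all genes on that scale, 601 of 13498 were lower and 4300 higher under FPC. Under CDAHFD 1742 of 13277 genes were lower and 5961 higher. Total-count scaling moved the median of all genes by 0.24 under FPC and 0.35 under CDAHFD in these comparisons, and the share of called genes that were lower to 12.3% (34.0% with TMM) and 22.6% (47.5% with TMM). Without CDAHFD control mice 1 and 2, 41 fell and 3 rose in mild CDAHFD hepatocytes. The 4 that rose under CDAHFD with all mice included Cox6b2, with 19, 27, 11 and 17 counts in mild libraries against 0, 0, 6 and 0 in controls, Ndufa4l2 and Ndufv3 (0.49, SE 0.19, edgeR adjusted p = 0.041). Ndufv3 encodes a small accessory subunit of the N module. Cox6b2 entered that fit only through the diseased groups where it is high. Sdhb measured 44.9, 40.3, 37.4 and 36.0 normalised CPM in mild FPC hepatocytes and 38.8, 41.4, 39.4 and 42.9 in mild CDAHFD hepatocytes, between the advanced and the control libraries of each diet with no overlap.

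Advanced and mild hepatocytes differed in 3 members under FPC, all lower in advanced mice, where 20.2% of all genes passed and 7.49% were lower. These were Sdhb (log2 fold change -0.61, SE 0.13, edgeR adjusted p = 0.0053), Atp5a1 (-0.40, SE 0.12, adjusted p = 0.029) and Atp5c1 (-0.37, SE 0.11, adjusted p = 0.029). Atp5c1 measured 69.9, 69.5 and 65.6 normalised CPM in advanced and 103, 84.3, 91.2 and 83.8 in mild FPC hepatocytes. Under CDAHFD the 2 that passed, also lower in advanced mice, were Sdhb (-0.47, SE 0.10, edgeR adjusted p = 0.035) and Ndufa4l2, where 2.82% of all genes passed, 1.3% higher and 1.52% lower. The FPC count was 1 without advanced mouse 3 and the CDAHFD count was 0 without any 1 of the advanced mice 1 and 2 and the mild mice 1, 2 and 3, and 1 without advanced mouse 3 or mild mouse 4. Under total-count scaling Sdhb was lower and Atp5s higher under FPC, so that Atp5a1 and Atp5c1 no longer passed, and Ndufa4l2 alone was lower under CDAHFD. Over all genes on that scale, 535 of 13498 were lower and 2241 higher under FPC. Under CDAHFD 115 of 13277 genes were lower and 519 higher. The median change over the members tested was -0.22 under FPC and -0.13 under CDAHFD. Endothelial, Kupffer cell and cholangiocyte markers differed between advanced and mild FPC hepatocyte libraries as well, as given above, and their part in these values was not tested.

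Whole liver nuclei showed the fall as well. In advanced FPC whole liver 53 of 76 members tested fell and none rose (median -0.51), where 28.0% of all 14129 genes were lower and 31.3% higher, and in advanced CDAHFD whole liver 64 of 77 fell and 1, Cox6b2, rose (median -0.75), where 25.9% of all 14098 genes were lower and 29.7% higher. Cox6b2 had 34 counts in the 3 advanced CDAHFD whole liver libraries and 4 in the 4 controls. It entered the fit only through the diseased groups where it is high. Cell type markers differed in whole liver too. All 9 hepatocyte markers were lower in advanced mice under both diets (medians -1.19 under FPC and -1.42 under CDAHFD), with sums of 4207 to 6180 normalised CPM in advanced FPC libraries against 12152 to 18633 in controls, and of 3836 to 5399 in advanced CDAHFD libraries against 12753 to 20919 in controls. All 7 recruited-macrophage markers were higher (medians 3.49 and 4.23), with sums of 139 to 166 in advanced FPC libraries against 7.81 to 10.5 in controls, and of 587 to 650 in advanced CDAHFD libraries against 11 to 13.1 in controls. Cholangiocyte markers were higher for 7 of 7 genes under FPC and 6 of 7 under CDAHFD, stellate cell markers for 7 and 5 of 8, and lymphocyte markers for 4 and 5 of 7. Endothelial markers were lower for 4 and 6 of 8 and higher for 2 and 1, and Kupffer cell markers were lower for 2 of 7 under each diet and higher for 2 and 5. Their part in the whole liver values was not tested. Total-count scaling moved the median of all genes by 0.44 under FPC and 0.47 under CDAHFD, and the share of called genes that were lower to 17.4% (47.2% with TMM) and 17.0% (46.6% with TMM). On that scale the members' medians were -0.07 under FPC and -0.28 under CDAHFD, and 11 members were lower and 2 higher under FPC, and 25 lower and 1 higher under CDAHFD. Over all genes, 1532 of 14129 were lower and 7271 higher under FPC. Under CDAHFD 1506 of 14098 genes were lower and 7330 higher. The sums over 82 subunits were 1152 ± 64.6 normalised CPM in advanced FPC whole liver, against 1689.9 ± 81.8 in controls, and 1123 ± 12.1 in advanced CDAHFD whole liver, against 1776 ± 195 in controls, or 68.2% and 63.2% of control. Every advanced library was below every control library for 49 of 76 members under FPC, or 64.5% against 28.3% of all genes, and for 56 of 77 under CDAHFD, or 72.7% against 22.7%. Of the members that fell in advanced FPC mice, 42 did so in both fractions, which is 42 of 46 in hepatocyte nuclei and 42 of 53 in whole liver. Under CDAHFD 50 did so, which is 50 of 53 in hepatocyte nuclei and 50 of 64 in whole liver. Over all genes tested in both fractions, 92.6% of those lower in advanced FPC hepatocyte nuclei and 64.6% of those lower in whole liver fell in both, against 91.3% and 79.2% of the members, and under CDAHFD 73.7% and 79.0% did, against 94.3% and 78.1% of the members. The fractions come from the same mice. Without CDAHFD control mice 1 and 2, 53 members fell and none rose in advanced CDAHFD whole liver, and 48 fell and none rose in mild CDAHFD whole liver.

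Across both diets and both fractions, 32 of the 76 members tested in each fell in all 4 comparisons of advanced with control mice, or 42.1%, against 13.6% of all 13066 genes tested in each. They comprise 13 of complex I (Ndufa5, Ndufa6, Ndufa9, Ndufb2, Ndufb3, Ndufb5, Ndufb8, Ndufb9, Ndufs1, Ndufs3, Ndufs4, Ndufs6 and Ndufs7), all 4 of complex II, Uqcrb, Uqcrc1, Uqcrc2, Uqcrfs1 and Uqcrh of complex III, Cox5a, Cox6c, Cox7a2, Cox7b and Ndufa4 of complex IV, and Atp5c1, Atp5f1, Atp5j, Atp5j2 and Atp5l of complex V. In none of the 4 comparisons did Atp5k, Cox6b2, Ndufa1, Ndufa7, Ndufa11 or Ndufb7 fall.

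**Figure D4:**
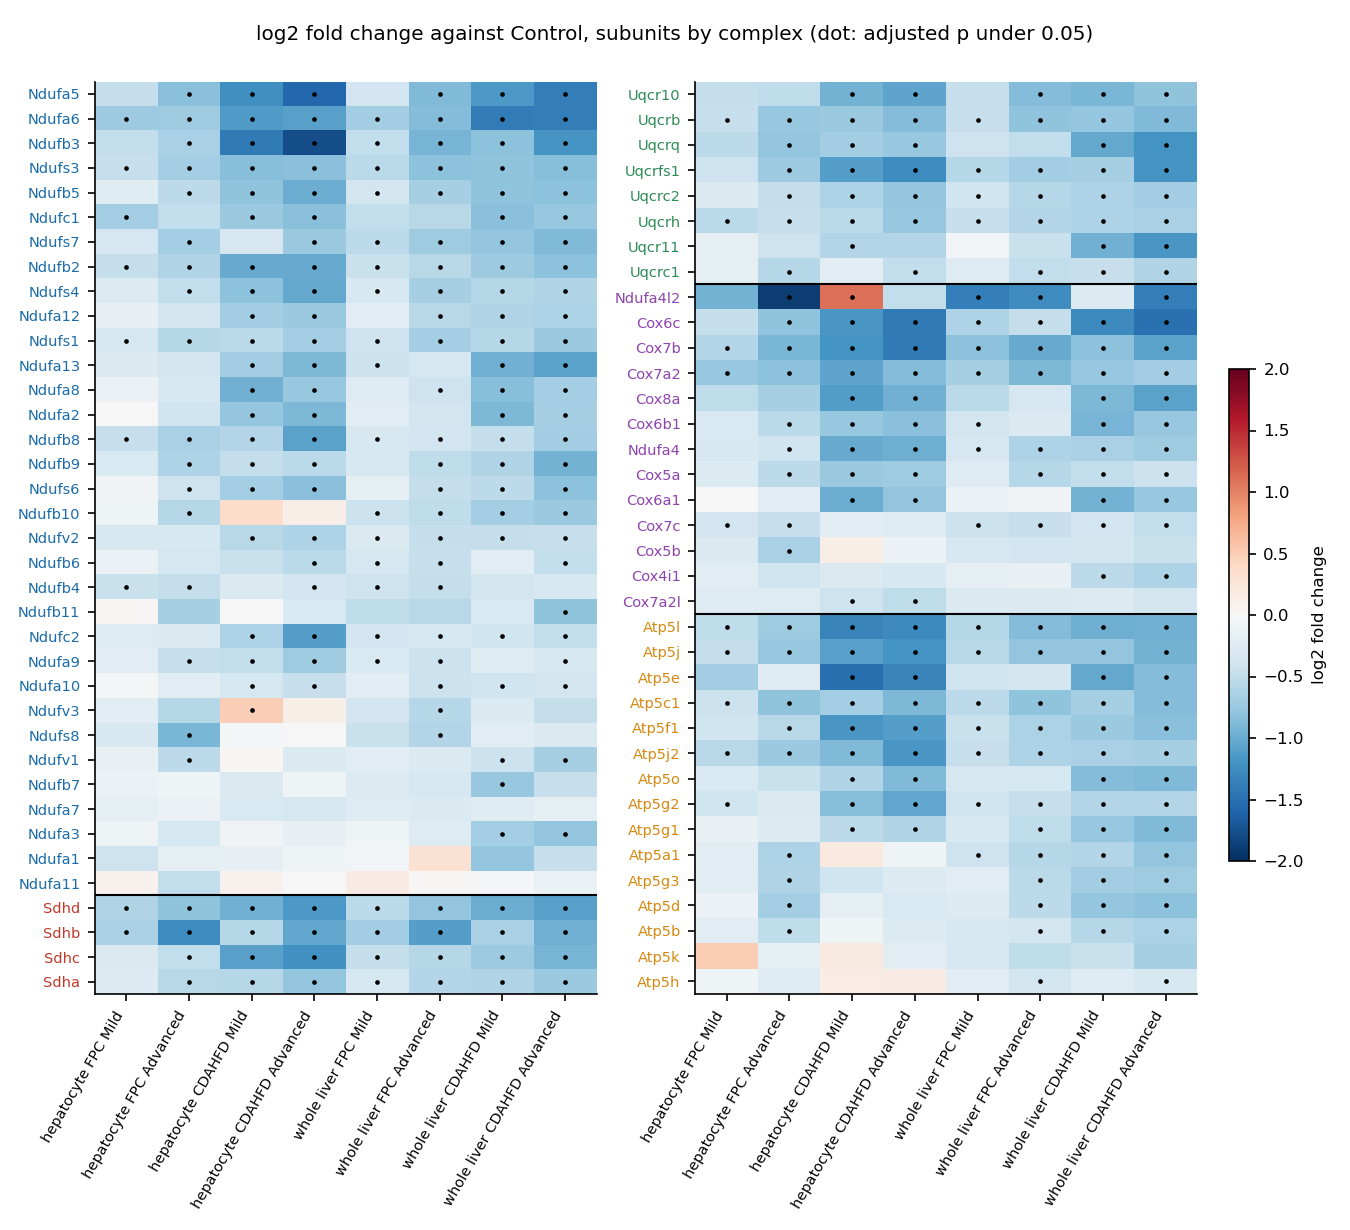
Log2 fold change against control of each of 73 subunit genes tested in all 8 comparisons (rows, ordered within each complex by their median, with gene names coloured by complex) in mild and advanced mice of each diet and fraction (columns); blue is lower, red is higher, and a dot marks adjusted p under 0.05. The rows of complex II are blue in all 8 columns, while Ndufa4l2 and Ndufv3 are red with a dot in mild CDAHFD hepatocytes.

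In mild mice the whole liver counts were 40 of 76 lower under FPC, where 18.2% of all genes were lower, and 59 of 77 lower and 1 higher under CDAHFD, where 24.5% were lower and 27.7% higher. The 1 that was higher, Cox6b2, entered the fit only through the diseased groups where it is high. Under total-count scaling 8 members were lower and 1 higher under FPC, and 24 lower and 1 higher under CDAHFD. Over all genes on that scale, 921 of 14129 were lower and 5747 higher under FPC. Under CDAHFD 1260 of 14098 genes were lower and 6578 higher. All 9 hepatocyte markers were lower and all 7 recruited-macrophage markers higher in mild whole liver under both diets, and their part was not tested. The FPC count was 24 without mild mouse 2, 26 without mild mouse 3 and 25 without control mouse 2. Advanced against mild whole liver passed for 3 members under FPC (Sdhb -0.41, Atp5c1 -0.29 and Atp5sl -0.54), where 8.98% of all genes were lower, and for none under CDAHFD, where 1.05% were lower. For CDAHFD the edgeR test had 4 members lower at an unadjusted p under 0.05, and DESeq2 called 1. The FPC count was 0 without advanced mouse 3 or mild mouse 3, and 1 without advanced mouse 2, mild mouse 2 or mild mouse 4.

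The advanced change in hepatocyte nuclei minus that in whole liver passed for no member under FPC, where 3.82% of all 14333 genes passed, 2.83% higher (2 lower at an unadjusted p under 0.05 with edgeR, 0 called by DESeq2), and for 4 members under CDAHFD, where 10.2% of all 14315 genes passed, 3.63% higher and 6.62% lower. Atp5a1 differed by 0.60 (edgeR adjusted p = 0.020), and it fell in whole liver, where it measured 40.3, 44.1 and 44.3 normalised CPM in advanced CDAHFD libraries, against 65.2, 86.8, 65.2 and 69.5 in controls (-0.78, SE 0.11, adjusted p = 6.7e-05), with no overlap. Atp5g2 differed by -0.55 (edgeR adjusted p = 0.017), Ndufs4 by -0.53 (adjusted p = 0.017) and Ndufa9, at the junction of the arms of complex I, by -0.49 (adjusted p = 0.048), and these fell more in hepatocyte nuclei. In this CDAHFD contrast the median of the genes outside the group was 0.44 under 3 kb and -0.14 over 30 kb. The subunits had 0.28 and -0.19 in those length classes. The count of members that passed under CDAHFD was 2 without advanced mouse 1, 1 without advanced mouse 2, 1 without advanced mouse 3 and 2 without CDAHFD control mice 1 and 2 together. Scaling by relative log expression gave 2 higher and 1 lower, and DESeq2 3 higher and 2 lower. A fit that kept the mouse as a block gave 6 under CDAHFD, 2 higher and 4 lower, and none under FPC. The share of all genes in that fit is not given here.

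In control mice, hepatocyte nuclei held more of these genes than whole liver nuclei in few cases, and the count depended on the handling of the pairs. Under FPC, Atp5c1 alone was higher in hepatocyte nuclei (log2 fold change 0.25, SE 0.09, edgeR adjusted p = 0.046), where 1.35% of all genes were higher. With the mouse as a block 18 members passed. The share of all genes that passed in the block fit is not given here, so the 18 cannot be set against the 1.35%. In the CDAHFD controls 18 of 77 were higher and none lower, where 31.0% of all genes passed and 14.6% were higher (33 members at an unadjusted p under 0.05). With the mouse as a block 26 members passed, again with no share of all genes given. In 2 of the 4 pairs behind that fit, CDAHFD control mice 1 and 2, the libraries deviated crosswise, and whether their labels were exchanged was not tested. The largest among subunits were Ndufa11 (0.74, SE 0.21, adjusted p = 0.0100), Cox5b (0.61, SE 0.16, edgeR adjusted p = 0.0078), Uqcr10 (0.61, SE 0.23, adjusted p = 0.049) and Atp5d (0.55, SE 0.18, adjusted p = 0.027). The CDAHFD count was 1 without mouse 1, 28 without mouse 2, 1 without both, and 10 without mouse 3 or mouse 4, and no member passed under total-count scaling or with an offset for gene length.

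Compared per length, the order of levels in control hepatocytes put ATP synthase genes at the top. In FPC controls Atp5a1 had 8.81 and Atp5b, the beta subunit, 8.24 normalised CPM per kilobase of counted length, followed by Ndufa6 at 6.66, Cox7c at 6.32 and Atp5j at 5.61. Over the expressed members of each complex the median level was 1.68 normalised CPM per kilobase for complex I, 3.23 for complex II, 2.64 for complex III, 1.98 for complex IV and 3.18 for complex V in the FPC controls. The CDAHFD controls gave 1.92, 3.27, 3.10, 2.24 and 3.20 in the same order. Since introns were counted, a level per kilobase reflects unspliced as well as spliced RNA.

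The genes of the group are short, with a median length of 7074 bases (1126 to 105383), against 22971 over the genes of the authors' deposited table, and 17.814% of those genes are shorter than the median member. Length was related to change under CDAHFD in hepatocyte nuclei: in advanced CDAHFD hepatocytes the median log2 fold change of the other genes was 0.33 under 3 kb, 0.18 from 3 to 10 kb, -0.08 from 10 to 30 kb and -0.27 over 30 kb. The subunits of the same length classes had medians of -0.29 (5 of 14 fell), -0.85 (29 of 40), -0.76 (15 of 18) and -0.68 (3 of 3). In advanced FPC hepatocytes the other genes lay between -0.00 and -0.07 in all 4 classes, and the subunits between -0.57 and -0.49. In advanced CDAHFD whole liver the other genes had medians of -0.09, -0.07, -0.09 and -0.12 from the shortest class to the longest. In each class of advanced hepatocyte nuclei the subunits were below the other genes. With an offset for gene length 40 members passed in advanced hepatocytes under FPC and 63 under CDAHFD, counted in either direction. The share of all genes that passed with the offset is not given here.

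**Figure D5:**
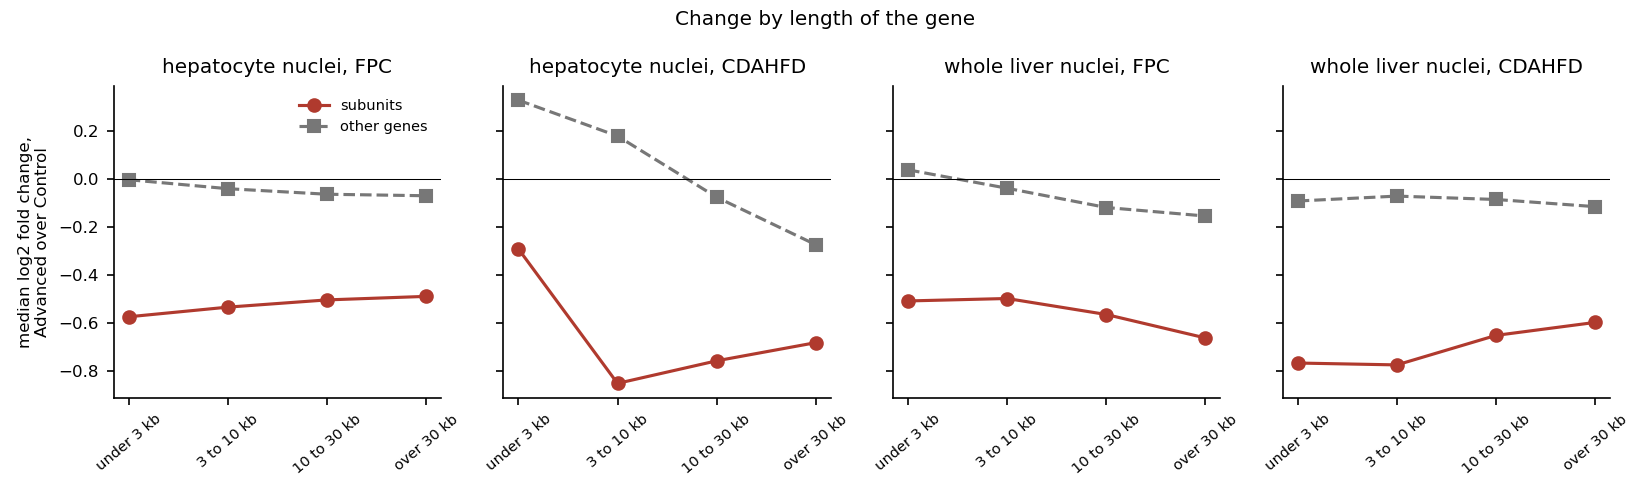
Median log2 fold change of advanced over control (vertical axis) for subunit genes (circles) and all other genes (squares) in 4 classes of gene length, for each fraction and diet. The subunit medians lie below those of the other genes in every class of every panel, at -0.29 against 0.33 for genes under 3 kb in CDAHFD hepatocytes.

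Promoters of respiratory genes are known for sites of NRF1, of ETS factors such as GABP, of YY1 and of SP1. The 250 bases before the start were taken from RefSeq on GRCm38.p6 for 63 of the 82 subunits and for 10261 of the 13147 genes of the authors' deposited table, matched by symbol with a start within 500 bases of the deposited one. Both strands were searched for 5 exact strings, overlaps between them being allowed. The NRF1 core CATGCGC was found in 10 subunit promoters, or 15.87%, against 5.76% of all, and the ETS core CCGGAAG in 11, or 17.46% against 13.72%. The YY1 core ATGGCGG was found in 2, or 3.175% against 3.547%, the SP1 box GGGCGG in 21, or 33.33% against 56.75%, and TATAAA in 6, or 9.524% against 7.124%. Median GC content was 54.8% for the subunits and 59.2% for all. Subunits with the NRF1 core had a median log2 fold change of -0.42 in advanced FPC hepatocytes (10 genes), against -0.52 for the 50 without it, and -0.78 in advanced CDAHFD hepatocytes (10 genes), against -0.75 for the 51 without it. For the ETS core the medians were -0.42 with it (11 genes) and -0.53 without it under FPC, and -0.79 and -0.75 under CDAHFD. Subunits with the SP1 box had -0.36 under FPC (19 genes), against -0.54 without it, and -0.66 under CDAHFD (20 genes), against -0.83 without it. The 5 with TATAAA had -0.36 under FPC, against -0.52 without it, and -0.34 under CDAHFD, against -0.78 without it, and the 2 with the YY1 core had -0.15, against -0.52, and -0.22, against -0.77. A match is a string in the sequence and not a bound site.

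Other genes of the pathway were read from lists not picked by direction, in advanced against control hepatocytes, where 20.4% of all genes were lower under FPC and 29.2% under CDAHFD. Of 15 regulators of respiratory gene transcription tested, 8 fell and 1 rose under FPC, and 9 fell and 2 rose under CDAHFD. Esrrg, a nuclear receptor that activates respiratory genes, fell by 1.92 under FPC and by 3.09 under CDAHFD on the log2 scale, Ppara, the receptor that drives fatty acid oxidation, by 0.90 and 0.71, and Gabpa, the DNA-binding subunit of GABP that overlaps Atp5j, by 0.73 and 0.62. Pprc1, a relative of Ppargc1a, rose by 1.29 under FPC and 1.23 under CDAHFD. Chosen after their values were seen, the coactivator Ppargc1a (PGC-1 alpha) fell by 0.50 under FPC and by 1.17 under CDAHFD, and Nrf1, which encodes NRF1, fell by 0.58 under CDAHFD and had -0.01 under FPC, where it did not pass.

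Assembly factors, which are not part of the finished complexes, were read in the same way and against the same 20.4% and 29.2%. Under FPC and CDAHFD, 4 and 8 of 12 complex I factors fell (1 rose under CDAHFD), 2 and 3 of 4 complex II factors, 2 and 3 of 6 complex III factors, and 6 and 9 of 19 complex IV factors (2 rose under CDAHFD). Among those lower under both diets were Tmem126b of complex I (-0.85 and -1.63), Sdhaf3 of complex II (-0.32 and -0.94), Uqcc1 of complex III (-0.53 and -1.18) and the copper chaperone Sco2 of complex IV (-1.43 and -2.35). Of 4 genes for the assembly and inhibition of ATP synthase, 1 rose and 1 fell under FPC, and 1 rose and 3 fell under CDAHFD (Atpaf1, Atpaf2 and Tmem70). Atpif1, which encodes the inhibitor of ATP synthase, rose by 0.64 under FPC and 1.25 under CDAHFD, while the ATP synthase assembly factor Atpaf2 fell by 0.41 and 0.86. Among 7 mobile carriers, electron-transfer flavoproteins and cytochrome c1, 2 fell under FPC and 4 under CDAHFD, with Etfa at -0.93 and -1.13 and Etfb at -0.60 and -0.53. Cyc1 (-0.35 and -0.31) and Cycs, cytochrome c, (-0.12 and -0.06) did not pass. Of 14 tricarboxylic acid cycle genes 5 fell and 1 rose under FPC, and 7 fell and 1 rose under CDAHFD. The gene that rose was Idh2, mitochondrial isocitrate dehydrogenase (0.89 and 1.20), while Ogdh (-0.54 and -0.50), Idh3g (-0.76 and -0.37) and Sucla2 (-0.63 and -0.52) fell under both diets.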

How the data were processed

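RNA from tagged hepatocyte nuclei and from whole liver nuclei was made into stranded libraries without poly-A selection and sequenced as read pairs, per the labels' protocols. STAR 2.4.2a, DESeq2 1.24.0 and the mm10 build are named in the submitters' processing notes. The counting tool and its strand setting are not given in the sources used here. The authors deposited raw counts for 20105 RefSeq transcript IDs, and a table of log2 fold changes with adjusted p-values for hepatocyte comparisons of 13147 genes, per the file headers. Symbols came from that deposited table for 79 members and, for the other 5, from the RefSeq gene table.

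The tests used edgeR 4.0.16 under R 4.3.3 with limma 3.58.1: TMM scaling, filterByExpr, robust quasi-likelihood fits over all rows, Benjamini-Hochberg adjustment over all rows tested, and a threshold of 0.05. Each comparison within a fraction and diet used its 11 libraries, and comparisons across fractions or diets used 22. The SE of a log2 fold change was taken from its size and the F statistic. Levels are CPM scaled by TMM over all 44 libraries. The script was tested on simulated data. Interactions had no block in the main fit. The same-numbered libraries come from the same mouse, and 20 of 22 pairs deviated together (correlation over 0.1, 12905 genes), so the mouse was a block in an alternative fit.

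Members named with values are the highest and lowest of each complex, the 15 lower under both diets with the largest smaller change, the isoform sets, members that differed between fractions or diets (up to 4 of each), and members near or below detection; values of 1 member are not reported here. Genes of the other lists are named, up to 4 of a list, where they passed in the same direction under both diets, or where 5 or fewer of a list passed. The members and lists were chosen with earlier results of these data known. Alternatives were DESeq2 1.42.0, RLE scaling, total-count scaling, no or a stricter filter (CPM of 1 in 3 libraries), groups alone, an offset for gene length (loess, span 0.5), the replicate block, overlapping genes left out and each mouse left out. Total-count scaling and leaving out CDAHFD control mice 1 and 2 together were added after seeing the data. Counting precision is limited by depth for low members.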

Additional observations from a re-analysis of the deposited data

Results flagged for a closer look

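In 168 groups of 4 libraries (the members shown by library and the sums per complex), the highest or lowest library was checked for a gap to its nearest neighbour above the critical value of Dixon's test for its share of the group's range, which chance gives in about 1 of 20 groups, and 10 stood apart.

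Among hepatocyte libraries, Sdhc was low in mild CDAHFD mouse 1 (14.7 normalised CPM), Atp5a1 was low in mild FPC mouse 3 (57.7), and Atp5sl was low in CDAHFD control mouse 4 (22.9). Mild FPC mouse 1 was high for Cox6b1 (17.9) and for the complex IV sum (152.3). Atp5s was high in FPC control mouse 3 (15.4), and Cox6b2 was high in CDAHFD control mouse 3 (0.406), the only library of that group with counts. Among whole liver libraries, mild CDAHFD mouse 1 stood apart for Uqcrfs1 (6.30), CDAHFD control mouse 4 for Ndufa4l2 (0.274) and mild FPC mouse 3 for Cox6b2 (0.0950).

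The change in advanced CDAHFD mice differed between hepatocyte nuclei and whole liver nuclei (hepatocyte minus whole liver, log2, edgeR) for Atp5a1 (0.60), Atp5g2 (-0.55), Ndufs4 (-0.53) and Ndufa9 (-0.49). The change in advanced hepatocytes differed between the diets (CDAHFD minus FPC) for Atp5sl (1.12), Atp5s (-0.82), Atp5g2 (-0.70), Sdhc (-0.66) and Atp5a1 (0.59). No other members passed in these 2 tests. Between fractions 4 of 77 members tested passed, where 10.2% of all genes did. Between diets 5 of 77 members tested passed, where 11.9% of all genes did.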

How the results depend on the processing

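Scaling by total counts changed most counts of members called. It gave 7 in advanced and 7 in mild FPC hepatocytes, 33 in advanced CDAHFD hepatocytes, 13 in advanced and 9 in mild FPC whole liver, 26 in advanced and 25 in mild CDAHFD whole liver, 1 for advanced against mild CDAHFD hepatocytes, 0 for advanced against mild FPC whole liver and for both control comparisons of the fractions, and 2 for the CDAHFD difference between fractions. With it, Ndufa4 under FPC (0.0024) and Atp5a1 (0.41), Ndufa11 (0.49) and Uqcrc1 (0.013) under CDAHFD turned from negative to positive in advanced hepatocytes. The cause was not tested. RLE scaling kept 14 of 17 counts within 1.5 times, DESeq2 11, no filter 16, a stricter filter 16, groups alone 11 and an offset for length 12.

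The control comparison of the fractions was the least stable. Under FPC it gave 0 with RLE, DESeq2, groups alone or the length offset, 2 with no filter, 3 with the stricter filter and 18 with the replicate block. Under CDAHFD it gave 3 with RLE, 4 with DESeq2, 0 with groups alone or the length offset, 1 without CDAHFD control mice 1 and 2, and 26 with the replicate block. The CDAHFD difference between fractions gave 3 (2 higher, 1 lower) with RLE, 5 (3 higher, 2 lower) with DESeq2, 1 (higher) with groups alone, 2 with the length offset, 2 without CDAHFD control mice 1 and 2, and 6 with the replicate block; the block left the FPC count at 0. The diet difference gave 9 with DESeq2 and 12 with the length offset. Advanced against mild gave 5 with DESeq2 and 1 with groups alone in FPC hepatocytes, 1 with overlapping genes left out in CDAHFD hepatocytes, 1 with groups alone in FPC whole liver, and 1 with DESeq2 or groups alone in CDAHFD whole liver. Mild FPC whole liver gave 26 with the length offset.

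Leaving out 1 mouse at a time gave 34 to 44 (advanced) and 13 to 30 (mild) in FPC hepatocytes, 48 to 55 and 44 to 55 in CDAHFD hepatocytes, 41 to 57 and 24 to 43 in FPC whole liver, and 55 to 66 and 55 to 63 in CDAHFD whole liver. Advanced against mild gave 1 to 4 and 0 to 1 in FPC and CDAHFD hepatocytes, and 0 to 2 and 0 in whole liver. Control fractions gave 1 to 2 under FPC and 1 to 28 under CDAHFD, the difference between fractions 0 under FPC and 1 to 4 under CDAHFD, and the diet difference 3 to 9. Members with few counts, such as Cox6b2 and Ndufa4l2, are limited by depth.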
